A study of Mus musculus with 8 samples.

Results

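The direct comparison of IFN-λ2 with IFN-β used 6 of the 8 arrays of the series, namely the 3 arrays of IFN-λ2-stimulated cells and the 3 arrays of IFN-β-stimulated cells. They were selected by the stimulus and the replicate number in their labels and paired by that number, which was also the slide. All RNA came from IEC10, an immortalized intestinal epithelial line derived from a mouse transgenic for firefly luciferase under the Mx2 promoter, so that 1 line of 1 genotype stood behind every array. Cells were kept on transwell inserts for 21 days, the polarized state called 3D, and were then exposed for 9 h to IFN-λ2 at 20 ng/mL or to IFN-β at 500 U/mL. The remaining 2 arrays held untreated cells of the same line and are given as the background level. The doses have different units and each cytokine was used at a single dose and time. Per the study, both doses gave a submaximal induction of Mx2 in IEC10 cells, which was not tested here.

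Type I interferons such as IFN-β bind the receptor chains IFNAR1 and IFNAR2, which nearly all nucleated cells carry. Type III interferons such as IFN-λ2 bind IFNLR1 (also named IL-28Rα) together with IL-10Rβ, a receptor found mainly on epithelial cells and in the gut above all on the epithelial lining. Both receptors signal through JAK kinases to a complex of STAT proteins and IRF9, which binds interferon-stimulated response elements in the promoters of interferon-stimulated genes (ISGs).

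Each array gave 39429 non-control probes with a deposited intensity on a linear scale, in which the smallest value was 15 units. Between 20992 and 24252 probes per array were well above background by the scanner software, and none was saturated. The 25137 probes above 15 units on at least 2 of the 6 arrays were compared with limma, with the slide as a block, and stand for 20124 gene names. For a gene with several probes, the brightest tested probe over the 6 arrays stands for it. A gene is called when its Benjamini-Hochberg adjusted p over all tested probes was under 0.05 and its difference at least 2-fold, and is said to have passed when only the adjusted p was under 0.05. Between pairs of arrays of the same stimulus, probes typically differed by 0.095 to 0.163 (medians, log2 scale), and the median standard error of a paired difference was 0.079. The labels do not say whether replicates were separate cultures, so p-values measure the spread between these 6 samples, which may be technical.

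The IFN-λ2 group had more of the called genes on its side, an order that depended on 1 array, and the larger differences lay there too. Of the 20124 genes, 299 (1.49%) were called higher with IFN-λ2 and 162 (0.805%) higher with IFN-β. At an adjusted p alone, the numbers were close, with 884 genes (4.39%) higher with IFN-λ2 and 893 (4.44%) higher with IFN-β. A difference of 4-fold or more was reached by 56 genes on the side of IFN-λ2 and by 12 on the side of IFN-β, and one of 8-fold or more by 13 and 0. Counted by probe, 353 (1.4%) were called higher with IFN-λ2 and 182 (0.724%) higher with IFN-β. At the adjusted p alone these numbers were 1059 probes (4.21%) and 1055 probes (4.2%). Without IFN-β replicate 2, in a fit of the other 7 arrays with no slide block, the called probes were 363 and 415, so that the order turned. With normexp, another background correction, run with an offset of 50, they were 227 and 35. The offset is added to every probe and so compresses differences of dim genes. The median log2 difference over all genes was -0.0012, and the lowest and highest percentiles lay beyond -1.15 and 1.33.

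**Figure D1:**
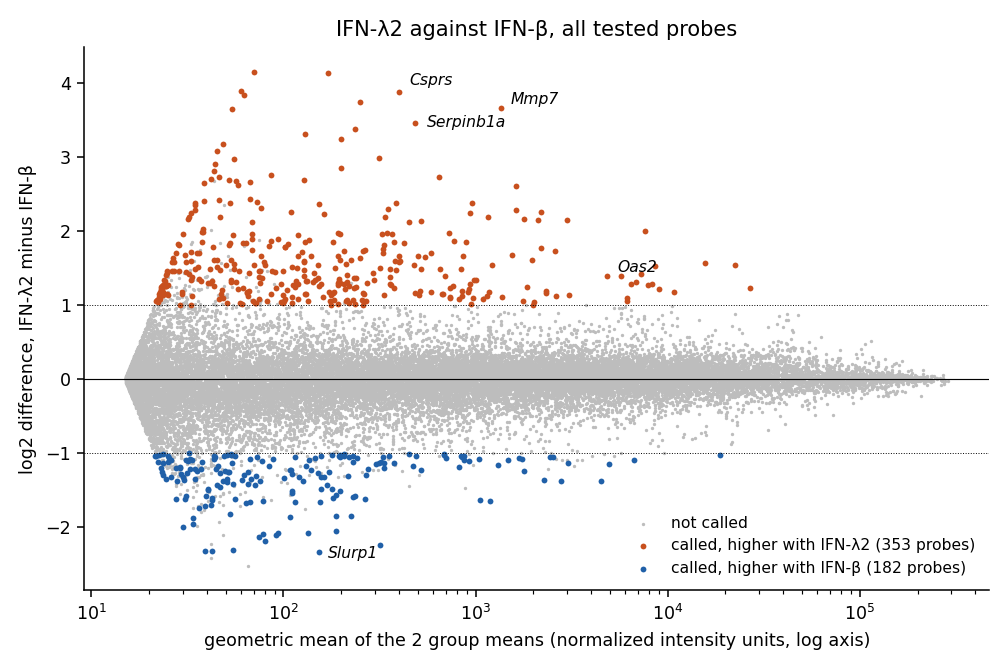
Log2 difference between the IFN-λ2 and the IFN-β group for the 25137 tested probes (vertical axis) against the geometric mean of the group means in normalized intensity units (log axis). Called probes are coloured, 353 higher with IFN-λ2 and 182 higher with IFN-β, dotted lines mark 2-fold, and no probe higher with IFN-β reached 8-fold, whereas Csprs, Mmp7 and Serpinb1a lie above it on the other side.

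The called genes are described here by slide and by array. They were chosen on these same 6 arrays, so that high counts follow in large part from the calling and are no separate support. Among the 299 genes called higher with IFN-λ2, 278, 275 and 255 were at least 2-fold higher on slides 1, 2 and 3. Among the 162 genes called higher with IFN-β, the numbers were 146, 134 and 110. The 3 arrays of the higher group lay above all 3 arrays of the lower group in 297 of 299 and in 159 of 162 called genes, where such a separation was found for 18.3% of all genes in the direction of IFN-λ2 and 15.6% in that of IFN-β. All 6 arrays were well above background for 214 and 101 of the called genes, while for 30 and 9 of them the lower group was well above background on no array. On every slide the IFN-λ2 array sat at position 2 and the IFN-β array at position 3, so that position and stimulus cannot be told apart.

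Set beside the untreated cells, the genes of both directions were mostly displaced in the IFN-λ2 group. For the 299 genes higher with IFN-λ2, the median level was 63.9 units in untreated cells, 231 units with IFN-λ2 and 73.9 units with IFN-β. Their IFN-λ2 mean was at least 2-fold above the untreated mean in 273 genes, and their IFN-β mean in 24. For the 162 genes higher with IFN-β, the median level was 146 units in untreated cells, 53.5 units with IFN-λ2 and 163 units with IFN-β. Here the IFN-λ2 mean was at least 2-fold below the untreated mean in 111 genes, and the IFN-β mean was at least 2-fold above it in 7. These values describe genes chosen on the difference between the stimuli, both stimuli share the same 2 untreated arrays, and no test was made of them.

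Among the largest differences towards IFN-λ2 were a metalloproteinase, a protease inhibitor and a nuclear body-related repeat gene. Mmp7, whose product matrilysin is a secreted protease that activates Paneth cell α-defensins in the mouse gut, was at 4173, 6001 and 4446 units with IFN-λ2. With IFN-β it was at 384, 387 and 367 units, and in untreated cells at 327 and 469 units. All IFN-λ2 arrays lay far above the other arrays, and the IFN-β arrays were within the range of the untreated ones. The difference was 12.7-fold (log2 3.66 ± 0.12 SE, adjusted p = 0.0107). The probe lies at chr9:7697641-7697700 in mm9.

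Serpinb1a, a cytoplasmic inhibitor of neutrophil elastase-type proteases, was at 2147, 1626 and 1156 units with IFN-λ2 and at 156, 135 and 141 units with IFN-β, against 109 and 110.2 units in untreated cells. It was thus 11.1-fold higher with IFN-λ2 (log2 3.47 ± 0.17 SE, adjusted p = 0.0119; probe at chr13:32934693-32934752 in mm9), the groups being well separated although the IFN-λ2 arrays varied among themselves. Csprs, a gene of the repeated Sp100 locus, was at 1424, 1784 and 1407 units with IFN-λ2, at 103, 96.4 and 113 units with IFN-β and at 29.1 and 22.8 units in untreated cells. The difference was 14.7-fold (log2 3.88 ± 0.13 SE, adjusted p = 0.0107), and here the IFN-β arrays also lay above the untreated ones. The other 2 probes of Csprs passed as well, with log2 differences of 0.99 and 0.61. Copies of this locus are nearly identical in sequence, so that a probe may report several of them.

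**Figure D2:**
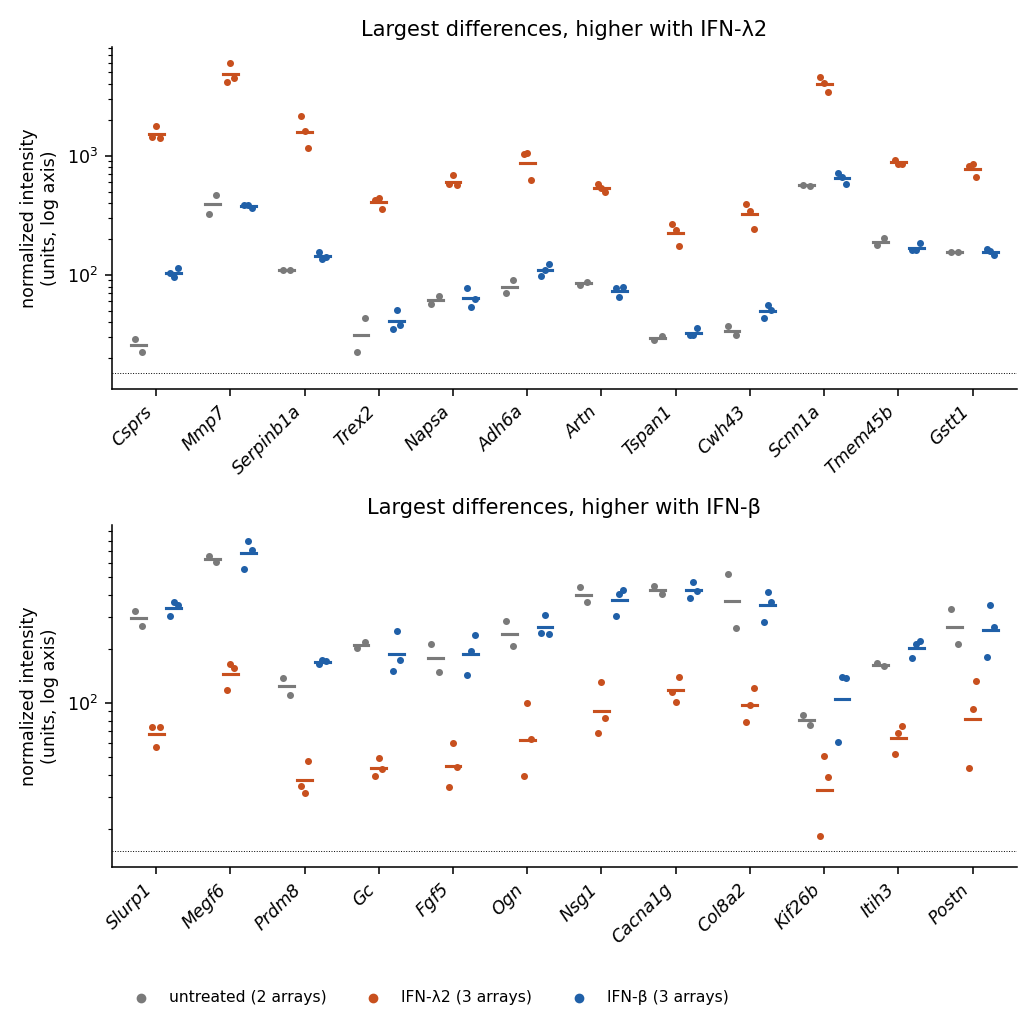
Level on every array (points, normalized intensity units, log axis) and geometric mean (bars) of the 12 named genes with the largest difference in each direction among those well above background on all 6 arrays; the dotted line marks the floor of 15 units. In the upper panel the IFN-λ2 arrays stand above the untreated and IFN-β arrays, and in the lower panel, from Slurp1 to Postn, they stand below them.

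The other genes of this group encode proteins of diverse functions. Trex2, an exonuclease of stratified and mucosal epithelia, was 9.94-fold higher with IFN-λ2, and the aspartic protease gene Napsa was 9.49-fold higher. Artn, encoding the neurotrophic factor artemin, was at 575, 536 and 499 units with IFN-λ2 and at 77.5, 65.7 and 79.2 units with IFN-β, a 7.26-fold difference. The remaining members were Adh6a (7.93-fold), Tspan1 (6.78-fold), Cwh43 (6.45-fold), Scnn1a (6.11-fold), Tmem45b (5.19-fold) and Gstt1 (4.94-fold). The adjusted p of these 9 genes lay between 0.0107 and 0.0175 in limma.

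For some genes the IFN-β group was well above background on no array, and only a lower bound of the difference can be stated. Ttr, encoding the thyroxine and retinol carrier transthyretin, was at 409, 185 and 146 units with IFN-λ2 and at 15 to 16.9 units with IFN-β, so that it was at least 11.3-fold higher. Pitx1, a homeobox gene of hindlimb and foregut development, was at 205, 233 and 142 units with IFN-λ2 and at the floor of 15 units on all IFN-β arrays, hence at least 9.63-fold higher. The same held for the axonemal dynein gene Dnah7b (at least 6.01-fold), the nucleoside transporter gene Slc28a3 (at least 3.92-fold), Bcl2l14 (at least 3.74-fold) and Ankrd22 (at least 3.63-fold). A second probe of Bcl2l14 was near the floor in every group and did not pass.

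Metalloproteinases and their inhibitors divided between the stimuli. Of 13 tested members of this list, 2 passed towards IFN-λ2, Mmp7 and Timp3, and 6 towards IFN-β, with a list median of -0.52 against -0.0012 over all genes. Timp3, a matrix-bound metalloproteinase inhibitor, exceeded its IFN-β level by 3.16-fold (adjusted p = 0.0138), at 1765, 1612 and 1216 units against 581, 431 and 437 units. The gelatinase gene Mmp2 was at 83.5 to 103 units with IFN-λ2 and at 153 to 183 units with IFN-β (log2 difference -0.84, adjusted p = 0.0267). Mmp11 and Mmp15 differed by -0.96 and -0.95, and Adamts1 by -0.73, and each of them was below the untreated arrays in the IFN-λ2 group. Among 20 serpins and other protease inhibitors, 4 passed towards IFN-λ2 and 2 towards IFN-β. Besides Serpinb1a these included Serpinb5, which encodes maspin (2.22-fold higher with IFN-λ2, adjusted p = 0.0212), and Spink2, a Kazal-type inhibitor gene at 249.9 to 299 units with IFN-λ2, 133 to 136 units with IFN-β and 29.8 to 31.9 units in untreated cells (2.03-fold, adjusted p = 0.015).

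Of 28 tested genes in a list of the absorptive enterocyte, 9 passed towards IFN-λ2, of which 4 were called, and 0 towards IFN-β in limma. Outside the list, Mep1a, which encodes a brush border metalloprotease, was called higher with IFN-β, at a mean of 80.4 units against 34.0 units with IFN-λ2 (log2 -1.25, adjusted p = 0.0137). Anxa13, an annexin of the intestinal brush border, was at 206, 109 and 129 units with IFN-λ2 and at 15 to 17.5 units with IFN-β. Lct, the gene of the milk sugar-cleaving enzyme lactase, was at 150.2, 123 and 148 units with IFN-λ2 and at 63.7, 66.7 and 72.2 units with IFN-β (2.07-fold, adjusted p = 0.0193). Tspan8, a tetraspanin gene, was higher with IFN-λ2 by 2.44-fold (adjusted p = 0.018). Smaller differences were measured for the amino acid transporter gene Slc6a19 (log2 0.60, adjusted p = 0.0202) and the fatty acid-binding protein gene Fabp2 (log2 0.38, adjusted p = 0.0438). Krt20, a keratin of differentiated enterocytes, was already high in untreated cells at 74249 and 89402 units and reached 132871 to 138837 units with IFN-λ2 and 92148 to 100307 units with IFN-β (log2 0.51, adjusted p = 0.0292). The median difference of the list was 0.19. Its members Alpi, Slc5a1, Fabp1, Apoa1, Apoa4 and Apob did not rise above the floor on enough arrays to be tested. The villin gene Vil1, which marks the brush border itself, was at 36.9 to 62.6 units on the 8 arrays, and its difference of 0.30 did not pass.

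Transcription factors of intestinal differentiation did not move in 1 direction. Of 21 tested, 4 passed towards IFN-λ2 and 2 towards IFN-β, and the median was -0.0095. Other members, among them Cdx2, Hnf4g, Gata4 and Atoh1, did not rise above the floor on enough arrays to be tested. Foxa1, a pioneer factor of endodermal epithelia, was at 1989, 1540 and 1590 units with IFN-λ2, at 506, 452 and 451 units with IFN-β and at 627 and 484 units in untreated cells (3.61-fold, adjusted p = 0.0107). Gata6, a zinc finger factor of the gut epithelium, was higher with IFN-λ2 by 1.49-fold (adjusted p = 0.0235). In contrast, Hnf4a, a nuclear receptor that drives enterocyte genes, was at 28.8, 21.3 and 23.8 units with IFN-λ2 and at 116, 126 and 118 units with IFN-β, where untreated cells had 169 and 129.7 units. It was thus 4.92-fold higher with IFN-β (log2 difference -2.30 ± 0.13 SE, adjusted p = 0.0132), although only 2 of the 3 IFN-λ2 arrays were well above background. With normexp, which raises dim signals, the difference of Hnf4a was -0.87 and its adjusted p was 0.0643.

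Among the listed transport and secretion genes, more passed towards IFN-λ2 than towards IFN-β. Scnn1a, the α subunit of the epithelial sodium channel, was at 4548, 4063 and 3445 units with IFN-λ2, at 722, 667 and 581 units with IFN-β and at 566 and 561 units in untreated cells. Aqp1, a water channel gene, was higher with IFN-λ2 by 2.67-fold (adjusted p = 0.0108), and Car2, a carbonic anhydrase gene, was 1.76-fold higher (adjusted p = 0.015). Of 25 ion and water transport genes tested, 6 passed towards IFN-λ2 and 0 towards IFN-β in limma, and the list median was 0.15. Scnn1b and Scnn1g were among the members too dim to be tested. Outside this list, transport genes were called in both directions. Examples are Slc17a1 (log2 -1.51) and Scn4b (log2 -1.58), higher with IFN-β, and Slc28a3 (log2 2.36), higher with IFN-λ2. Among 16 tested mucin and goblet cell genes, 5 passed towards IFN-λ2 and 1 towards IFN-β. The goblet cell members Muc2, Tff3, Agr2, Zg16 and Retnlb did not rise above the floor on enough arrays to be tested. The membrane mucin gene Muc4 was higher with IFN-λ2 by 3.33-fold (adjusted p = 0.0141), and Muc20 was 2.34-fold higher (adjusted p = 0.0176). Gcnt3, which encodes a mucin O-glycan branching enzyme, was at 154, 90.7 and 105 units with IFN-λ2 and at 15 to 18.5 units with IFN-β.

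Several alcohol dehydrogenase genes were higher with IFN-λ2. Adh1, the class I alcohol and retinol dehydrogenase, was at 822, 843 and 462 units with IFN-λ2 and at 58.2, 31.6 and 32.2 units with IFN-β, against 61.2 and 56.4 units in untreated cells. This was a 17.5-fold difference (log2 4.13 ± 0.22 SE, adjusted p = 0.0127), although only 2 of the 3 IFN-β arrays were well above background. Adh6a stood at 1024, 1049 and 623 units with IFN-λ2 and at 98.9, 109 and 124 units with IFN-β. Of 26 genes of retinoid and alcohol metabolism, 5 passed towards IFN-λ2, all of them called, and 1 towards IFN-β, whereas the median of the list was -0.16, so that most members were not part of this difference.

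Among the 27 tested detoxification enzymes, 18 passed towards IFN-λ2, of which 9 were called, and 1 passed towards IFN-β. The median of the list was 0.75, the highest of all lists, and in relation to untreated cells the median was 0.93 in the IFN-λ2 group and 0.04 in the IFN-β group. Among them were genes of glutathione S-transferases, which conjugate electrophiles to glutathione. Gsta3 was at 4985, 4731 and 3738 units with IFN-λ2, at 1008, 1103 and 899.9 units with IFN-β and at 1009.7 and 989.5 units in untreated cells (4.45-fold, adjusted p = 0.0107). Gsta1 and Gsta4 were 2.49- and 2.45-fold higher, and Gstp1, at 49030 to 52950 units against 26114 to 29307 units, was 1.81-fold higher. Members of this family resemble each other in sequence, and cross-hybridization between them was not tested. The quinone reductase gene Nqo1 differed by 1.63-fold (adjusted p = 0.0358), the sulfotransferase gene Sult1a1 by 3.17-fold (adjusted p = 0.0137) and the cytochrome P450 gene Cyp1b1 by 3.02-fold (adjusted p = 0.0281).

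Listed genes of mucosal defence and epithelial growth that passed lay mostly on the side of IFN-λ2. Of 16 tested Paneth cell and mucosal defence genes, 3 passed towards IFN-λ2 and 0 towards IFN-β, with a list median of -0.10. Reg1, Reg3a, Reg3b, Reg3g and Itln1 of this list did not rise above the floor on enough arrays to be tested. Pglyrp1, which encodes a peptidoglycan recognition protein, was higher with IFN-λ2 by 3.07-fold (adjusted p = 0.0137). Lcn2, an iron-siderophore-binding protein gene, was at 56724 to 60532 units against 40784 to 47788 units (log2 0.43, adjusted p = 0.0402). Of 32 growth factor and wound repair genes, 9 passed towards IFN-λ2 and 1 towards IFN-β. Those higher with IFN-λ2 included Areg, which encodes the EGF receptor ligand amphiregulin (2.19-fold, adjusted p = 0.0442). Growth factor genes outside this list, among them Fgf5, Gdnf, Bdnf and Tgfb3, were called higher with IFN-β. Ccnd1, the gene of cyclin D1, which drives entry into the cell cycle, was at 14995, 14613 and 14388 units with IFN-λ2, at 5000.4, 5172 and 5092 units with IFN-β and at 3539 and 4038 units in untreated cells (2.88-fold, adjusted p = 0.0108). It was the only gene among 38 of the cell cycle and DNA replication list that passed in this direction, while 4 passed towards IFN-β, and the list median was -0.07.

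The classical ISGs were high with both stimuli, and some of them differed between the stimuli while others did not pass. Isg15, a ubiquitin-like modifier, was at 142242, 153745 and 133604 units with IFN-λ2 and at 135247, 141163 and 128193 units with IFN-β, where untreated cells had 11852 and 9359 units. Its difference of 0.09 ± 0.06 SE did not pass, the arrays of both groups overlapping. Usp18, which removes ISG15 from proteins, was at 51952, 53124 and 50345 units with IFN-λ2 and at 42165, 46754 and 44710 units with IFN-β (log2 0.22, adjusted p = 0.123). Ifi44 differed by 0.23 (adjusted p = 0.141). Ifit1, encoding a sensor of foreign RNA caps, passed at 8638, 8085 and 7757 units with IFN-λ2 against 5243, 4939 and 4622 units with IFN-β, a 1.65-fold difference (adjusted p = 0.0164). Bst2, the gene of tetherin, was at 136633 to 148802 units with IFN-λ2 and at 154276 to 168585 units with IFN-β (log2 -0.19, adjusted p = 0.141).

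Where ISGs passed, they did so almost always towards IFN-λ2. In the OAS family, whose enzymes make the oligoadenylates that activate RNase L, 5 of 12 tested genes passed towards IFN-λ2 and 0 towards IFN-β in limma (background of all genes 4.39% and 4.44%), and the median was 0.22. Oas2 was at 8387, 7954 and 7319 units with IFN-λ2, at 3005, 2995 and 2987 units with IFN-β and at 95.6 and 67.6 units in untreated cells (2.63-fold, adjusted p = 0.0119). Oas1a, at 80206 to 84661 units against 67604 to 71823 units, differed by 0.23 and did not pass. Of 37 other antiviral effectors, 16 passed towards IFN-λ2, of which 5 were called, and 1 towards IFN-β, with a median of 0.24. The called members were Phf11b (3.27-fold), Ifit1bl1 (3.11-fold), Ifi27l2a (2.45-fold), Phf11a (2.16-fold) and Phf11d (2.13-fold), with adjusted p between 0.0113 and 0.0197. Just under the 2-fold threshold lay Rsad2, which encodes viperin (1.99-fold, adjusted p = 0.0139), and Mx1 (1.98-fold, adjusted p = 0.0161).

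The single effector that passed towards IFN-β was Adar, the gene of an RNA-editing deaminase, but its probes disagreed. The brighter probe was at 7042, 7235 and 6864 units with IFN-λ2 and at 9365, 10829 and 10644 units with IFN-β (log2 difference -0.54, adjusted p = 0.0349), whereas the dimmer probe had a difference of 0.19 that did not pass. For Nlrc5, a transactivator of MHC class I genes, the brighter probe differed by 0.45 and the dimmer one by -0.45, and both passed. For Sp110 the brightest probe, at 73721 units or more on every array, differed by 0.14 and did not pass, while its other probes differed by 1.46 and 2.19 and did. The differences of these 3 genes therefore depend on the probe.

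**Figure D3:**
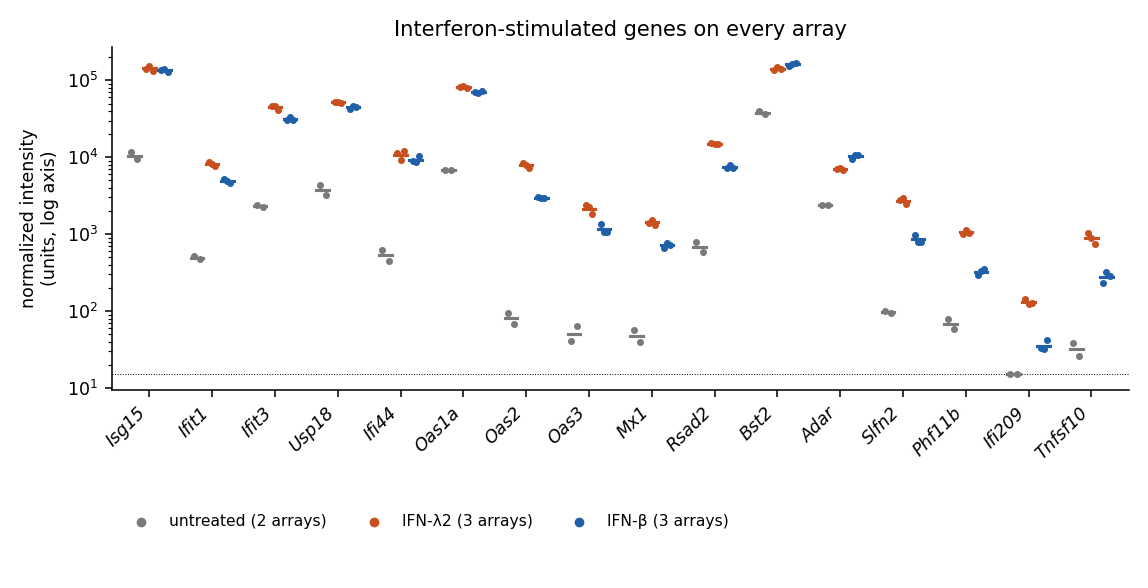
Level on every array (points, normalized intensity units, log axis) and geometric mean (bars) of 16 interferon-stimulated genes; the dotted line marks the floor of 15 units. Both stimuli lie above the untreated arrays for each gene, the arrays of both stimuli overlap for Isg15, and the IFN-λ2 arrays stand clearly above the IFN-β arrays for Oas2, Slfn2, Phf11b, Ifi209 and Tnfsf10.

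Among 19 interferon-inducible GTPases, which act on pathogen-containing vacuoles, 8 passed towards IFN-λ2 and 0 towards IFN-β in limma. Gbp11 was at 345, 350.1 and 326 units with IFN-λ2, at 109, 104 and 110.1 units with IFN-β and at 88.7 and 102 units in untreated cells (3.16-fold, adjusted p = 0.0108). Ifi47 was higher with IFN-λ2 by 2.09-fold (adjusted p = 0.0293), while Igtp, at 26411 to 27509 units against 24066 to 26743 units, did not pass. Of 16 nucleic acid sensors and PYHIN genes, 3 passed, all towards IFN-λ2. Ifi209 was at 144, 125 and 126 units with IFN-λ2, at 33.3, 32.1 and 41.5 units with IFN-β and at the floor in untreated cells (3.71-fold, adjusted p = 0.0139). The schlafen gene Slfn2 was 3.20-fold higher (adjusted p = 0.0132), and the nuclear body genes Sp140 and Sp100 were 2.92- and 2.53-fold higher with IFN-λ2. In the antigen presentation list, 4 of 27 tested genes passed, each towards IFN-λ2. Cd74, the invariant chain of MHC class II, was at 703, 727 and 630 units with IFN-λ2 and at 182, 169.9 and 172 units with IFN-β, whereas the class I gene H2-K1 differed by 0.35 and did not pass (adjusted p = 0.0534). The immunoproteasome genes Psmb9 and Psmb8 were 1.71- and 1.56-fold higher. Outside the antigen presentation list, genes of presenting molecules were called in both directions. Cd1d1 was higher with IFN-β, at a mean of 82.3 units against 31.4 units with IFN-λ2 (log2 -1.39, adjusted p = 0.0353). H2-M2 and H2-Q8 were higher with IFN-λ2 (log2 1.61 and 1.13).

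The receptor genes did not pass, and 1 gene of the receptor and signalling list did. Ifnlr1 was at 3088, 2829 and 3181 units with IFN-λ2 and at 2433, 2849 and 2880 units with IFN-β, a log2 difference of 0.16 ± 0.09 SE (adjusted p = 0.323). Il10rb differed by 0.07 ± 0.07, Ifnar1 by 0.00 ± 0.08 and Ifnar2 by -0.10 ± 0.06, and the arrays of both groups overlapped for each of them. Of all genes, 4.39% passed towards IFN-λ2 and 4.44% towards IFN-β. Of the 26 receptor and signalling genes tested, 0 passed towards IFN-λ2 and 1 towards IFN-β in limma, the latter near that share. That gene was Socs3, a feedback inhibitor of cytokine receptors, at 3883, 3896 and 4395 units with IFN-λ2, at 5362, 5733 and 5651 units with IFN-β and at 6665 and 6492 units in untreated cells (log2 -0.46, adjusted p = 0.0401). Irf7 and Irf9 differed by -0.17 and 0.07 and did not pass.

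Promoter sequence was available from RefSeq (GRCm38.p6), as 250 bases before to 50 after each start, for 190 of the 299 genes called higher with IFN-λ2 and for 102 of the 162 called higher with IFN-β. The core of an interferon-stimulated response element was searched on both strands as GAAA, any 2 bases and GAAA. It was found in 6.38% of the 235 promoters of the first group, in 6.98% of the 129 promoters of the second and in 3.08% of the 15227 promoters of all tested genes. The 24 genes that were higher with IFN-λ2 while IFN-β also stood at least 2-fold above untreated cells had 19 promoters, from 13 genes, of which 5 (26.3%), from 4 genes, held it. Among these 4 genes, Ifit1bl1 is counted with 2 starts, and Phf11a and Phf11b are related. The stretches below, written 5′ to 3′ on the strand of the gene with 1 match each in capitals, show it upstream of 3 of those genes and, for comparison, of Ifit1, which passed without being called, of Isg15, which did not pass, and of Cxcl14, which was called higher with IFN-β.
Phf11b (chr14:59341346-59341405, minus strand): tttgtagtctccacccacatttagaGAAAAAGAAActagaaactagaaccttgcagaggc
Phf11a (chr14:59297523-59297582, minus strand): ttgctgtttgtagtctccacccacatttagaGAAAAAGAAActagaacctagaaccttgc
Ifi206 (chr1:173491324-173491383, minus strand): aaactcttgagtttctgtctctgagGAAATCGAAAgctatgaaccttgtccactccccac
Ifit1 (chr19:34640779-34640838, plus strand): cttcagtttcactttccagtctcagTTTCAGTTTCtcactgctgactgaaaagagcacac
Isg15 (chr4:156200856-156200915, minus strand): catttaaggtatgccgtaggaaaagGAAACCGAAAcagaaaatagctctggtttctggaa
Cxcl14 (chr13:56296689-56296748, minus strand): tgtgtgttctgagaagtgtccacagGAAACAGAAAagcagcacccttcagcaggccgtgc

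Of the stretches shown, that of Ifit1 holds 1 further match and that of Isg15 holds 2 further, overlapping matches, which are left in lower case. The element core stood in promoters of both directions at a similar share. Phf11a and Phf11b are related genes, and whether their probes separate them was not tested. A match of this motif describes the letters only and says nothing on binding of a factor. The AP-1 core TGANTCA, searched in the same way, was found in 9.79% of the promoters of genes higher with IFN-λ2, in 8.53% of those higher with IFN-β and in 5.88% of all tested genes. It lies 57 to 63 bases before the start of Mmp7, which is shown because it was among the 12 largest differences:
Mmp7 (chr9:7692001-7692060, plus strand): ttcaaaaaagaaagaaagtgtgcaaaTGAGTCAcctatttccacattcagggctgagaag

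The GAS-like core TTCNNNGAA was found in 7.23% of the promoters of genes higher with IFN-λ2, in 10.1% of those higher with IFN-β and in 7.22% of all tested genes. The HNF4-like string CAAAGTCCA was found in 0.851%, 0.775% and 0.381% of them.

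Chemokine, cytokine and checkpoint ligand genes changed in both directions. Of 31 tested, 5 passed towards IFN-λ2 and 3 towards IFN-β, and the median was 0.04. Tnfsf10, the gene of the death ligand TRAIL, was at 1047, 882 and 742 units with IFN-λ2, at 233, 325 and 285 units with IFN-β and at 38.8 and 26.0 units in untreated cells (3.16-fold, adjusted p = 0.027). Ccl28, which attracts IgA-producing cells to mucosa, was higher with IFN-λ2 by 2.25-fold (adjusted p = 0.045), and Cd274, which encodes PD-L1, was at 719.9 to 733 units against 393 to 403 units (1.82-fold, adjusted p = 0.0141). Cxcl10 differed by 0.39 (adjusted p = 0.0438) and did not pass without the slide as a block. Outside this list, Cxcl17 (log2 2.73), Ccl6 (1.67), Ccl9 (1.41) and Il24 (1.06) were called higher with IFN-λ2. Cxcl17 and Ccl9 were not well above background on all IFN-β arrays. Ccl8 and Cxcl14, described below, were called higher with IFN-β and are also outside the list.

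On the side of IFN-β, Ccl7, a monocyte chemoattractant, was at 72.4, 36.8 and 57.9 units with IFN-β, at 19.5, 18.7 and 25.9 units with IFN-λ2 and at 21.2 and 20.8 units in untreated cells (2.54-fold, adjusted p = 0.0424). It was among the 7 called genes whose IFN-β mean was at least 2-fold above the untreated mean, and so was the related Ccl8. In the IFN-β group Ccl8 stood at 45.6, 27.6 and 37.8 units, well above background on 2 of 3 arrays. Both chemokines are close to background, and with normexp neither passed (log2 -0.17 and 0.01). Plekha4, which encodes a phosphoinositide-binding protein, was another of these 7 genes. It was at 952, 1013 and 961 units with IFN-β, at 446, 503 and 493 units with IFN-λ2 and at 486 and 446 units in untreated cells (2.03-fold, adjusted p = 0.0137), both of its probes passing. Cnga3, a cyclic nucleotide-gated channel gene, and 3 genes named only by a transcript or model identifier complete the 7. Cxcl14, an epithelial chemokine gene, was at 634, 638 and 720.5 units with IFN-λ2, at 1668, 2197 and 2443 units with IFN-β and at 2125 and 1794 units in untreated cells (3.13-fold higher with IFN-β). Cxcl5, a neutrophil chemoattractant gene, was at 482 to 536 units with IFN-λ2 and at 826 to 943 units with IFN-β (log2 -0.83, adjusted p = 0.016). The epithelial cytokine gene Tslp was 2.16-fold higher with IFN-β (adjusted p = 0.0285), with IFN-λ2 below the untreated cells.

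The 12 named genes with the largest differences towards IFN-β stood lower with IFN-λ2 than in untreated cells. Slurp1, encoding a secreted Ly6 protein that modulates nicotinic receptors in epithelia, was at 307, 364 and 351 units with IFN-β and at 325 and 268 units in untreated cells. With IFN-λ2 it was at 73.7, 56.8 and 74.0 units, well below all other arrays. The difference was 5.02-fold (log2 -2.33 ± 0.14 SE, adjusted p = 0.0137; probe at chr15:74557085-74557144 in mm9). Megf6, a gene of a protein with EGF-like repeats, was at 118, 164 and 157 units with IFN-λ2 and at 555, 796 and 709 units with IFN-β (4.70-fold, adjusted p = 0.0107), while its second, dim probe did not pass. Gc, which encodes the vitamin D-binding protein, was at 39.4, 49.4 and 42.8 units with IFN-λ2, at 151, 252 and 175 units with IFN-β and at 202 and 219 units in untreated cells (4.30-fold, adjusted p = 0.0119), and both of its probes passed.

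The other members were the histone methyltransferase-family gene Prdm8 (4.53-fold), the growth factor gene Fgf5 (4.21-fold), the small proteoglycan gene Ogn (log2 difference -2.07), Nsg1 (4.14-fold), the T-type calcium channel gene Cacna1g (3.60-fold), the collagen gene Col8a2 (3.58-fold), Kif26b (3.19-fold), Itih3 (3.17-fold) and the matricellular protein gene Postn (3.16-fold). Their adjusted p lay between 0.0108 and 0.0389. Postn was at 43.6, 92.4 and 133 units with IFN-λ2 and at 181, 349.6 and 266 units with IFN-β, so that within-group spread was large. Without the slide as a block, Kif26b and Postn did not pass (adjusted p = 0.0859 and 0.0726). Id4, Olfml2b, Gli2, Icos, Slc35g2 and Gypc were well above background on all IFN-β arrays and on none of the IFN-λ2 arrays, with bounds of at least 1.62-fold to at least 1.88-fold. These were dim genes, and with normexp none of them passed.

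Mesenchymal genes formed the list with the lowest median. Of 26 tested, 14 passed towards IFN-β, of which 7 were called, and 1 towards IFN-λ2, and the median was -0.75. In relation to untreated cells the median was -0.66 in the IFN-λ2 group and 0.04 in the IFN-β group. Vim, the gene of the intermediate filament vimentin, was at 6517, 6145 and 7808 units with IFN-λ2, at 13318, 12824 and 14348 units with IFN-β and at 10894 and 13858 units in untreated cells (log2 -0.99, adjusted p = 0.015). Sparc, encoding a secreted matrix-binding protein, was at 11766, 14848 and 12740 units with IFN-λ2 and at 25518, 28759 and 25478 units with IFN-β (2.03-fold, adjusted p = 0.0138). Both genes were bright and their groups did not overlap. In bulk RNA, fewer cells of a kind and less RNA per cell cannot be told apart.

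Among the passing members of the list were genes of transcription factors known to repress epithelial cadherin. Zeb1 differed by -0.94, Snai2 by -0.91, Twist1 by -1.02 and Twist2 by -0.77, with adjusted p between 0.021 and 0.0348. Twist1 was at 117, 135 and 125 units with IFN-λ2, at 294, 221 and 254 units with IFN-β and at 287 and 313 units in untreated cells. The ligand gene Wnt5a was 3.13-fold and the cadherin gene Cdh11 3.15-fold higher with IFN-β, and Tgfbi, a matrix protein gene named for its response to TGF-β, was 3.04-fold higher. Cdh11 did not pass without the slide as a block (adjusted p = 0.0628), nor did its second probe pass. Fap, a cell surface serine protease gene of activated stroma, went the other way at 177, 169 and 158 units with IFN-λ2, 99.4, 83.8 and 84.7 units with IFN-β and 16.6 units or less in untreated cells (1.88-fold, adjusted p = 0.016). The epithelial genes Cdh1 and Epcam differed by 0.24 and -0.06 and did not pass.

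Matrix genes had a negative median and integrins did not. Of 34 collagen, laminin and other matrix genes, 7 passed towards IFN-β and 1, the laminin gene Lama3, towards IFN-λ2, with a median of -0.23. Col6a1 was at 571, 634 and 576 units with IFN-λ2 and at 1199.8, 1286 and 1305 units with IFN-β (2.13-fold, adjusted p = 0.0137). Fn1, the fibronectin gene, at 17122 to 21870 units against 23703 to 30612 units, differed by -0.58 and did not pass (adjusted p = 0.0539). Of 11 integrins, 4 passed towards IFN-β, with Itga7 called at 2.22-fold, and 2 towards IFN-λ2, and the median was 0.04. Fstl1, a secreted BMP antagonist gene that is no member of these lists, was at 2593, 3127 and 2674 units with IFN-λ2 and at 6321, 8245 and 7124 units with IFN-β (2.58-fold, adjusted p = 0.0114).

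Markers of other cell types were examined beside these groups, and their part in the differences was not tested. Of 7 fibroblast markers, 4 were tested and 1, Vim, passed. The fibroblast-defining genes Col1a1 and Dcn were at 15 to 26.6 units and Col1a2 at 18.5 to 57.2 units on the 8 arrays, while Col3a1, Pdgfra and Thy1 did not rise above the floor on enough arrays to be tested. The summed level of the tested fibroblast markers, nearly all of it from Vim, was 6208 to 7868 units with IFN-λ2 and 12912 to 14411 units with IFN-β. Of 7 leukocyte markers, 5 were tested and 0 passed in limma, with Ptprc at 15 to 39.5 units. Their summed level, nearly all of it from the integrin gene Itgam, was 2185 to 3660 units with IFN-λ2, 2745 to 10038 units with IFN-β and 5632 to 7880 units in untreated cells, and Itgam differed by -1.04 without passing (adjusted p = 0.185). Of 4 endothelial markers 2 were tested and 0 passed. Of 7 epithelial markers tested, 1, Krt19, passed, towards IFN-λ2, and 0 passed towards IFN-β in limma. The markers Epcam, Cdh1, Krt8, Krt18 and Cldn7 were at 4043 units or more on every array. The housekeeping genes, 10 in number, had a median difference of 0.04 and 0 passed in limma, Actb at 257736 to 283990 units with IFN-λ2 and 264940 to 302240 units with IFN-β differing by -0.06.

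Keratins passed in both directions. Of 15 keratins, 6 passed towards IFN-λ2 and 2, the basal keratin genes Krt14 and Krt15, towards IFN-β, with a median of 0.28. Krt15 was at 118, 119 and 181 units with IFN-λ2, at 315, 222 and 304 units with IFN-β and at 162 and 192 units in untreated cells (2.03-fold, adjusted p = 0.0409). Krt19 was at 19856 to 22000.2 units with IFN-λ2 and at 12878 to 15143 units with IFN-β (1.51-fold, adjusted p = 0.022). Among 38 junction and polarity genes, 4 passed towards IFN-λ2 and 2 towards IFN-β, the latter near the 4.44% of all genes, with a median of 0.04. Cldn8, a barrier-forming claudin gene, was higher with IFN-λ2 at 141, 96.4 and 85.1 units against 15 to 18.7 units. Cldn6, an embryonic claudin gene, was 2.15-fold higher with IFN-β (adjusted p = 0.0137), at 1263, 1409 and 1397 units against 553, 671 and 678 units.

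Passing genes of cholesterol synthesis, the cell cycle and Wnt-related signalling lay mostly towards IFN-β. Of 27 cholesterol and fatty acid synthesis genes, 6 passed, all higher with IFN-β and none of them called, with a median of -0.27. Of 28 hypoxia and glycolysis genes, 2 passed towards IFN-λ2 and 1 towards IFN-β, where 4.39% and 4.44% of all genes passed. The latter was the carbonic anhydrase gene Car9, at 107.3, 191 and 113 units with IFN-λ2 and 282, 491 and 441 units with IFN-β (2.97-fold, adjusted p = 0.021). Cdkn1c, which encodes the cyclin-dependent kinase inhibitor p57, was at 1165, 1179.55 and 1122 units with IFN-λ2, at 2926, 2576 and 2704 units with IFN-β and at 2367 and 2693 units in untreated cells (2.36-fold, adjusted p = 0.0132). Of 24 Wnt, Notch, Hippo and BMP target genes, 1 passed towards IFN-λ2, Bmp7, and 6 towards IFN-β, with Dkk3 called at 2.07-fold (adjusted p = 0.0165).

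**Figure D4:**
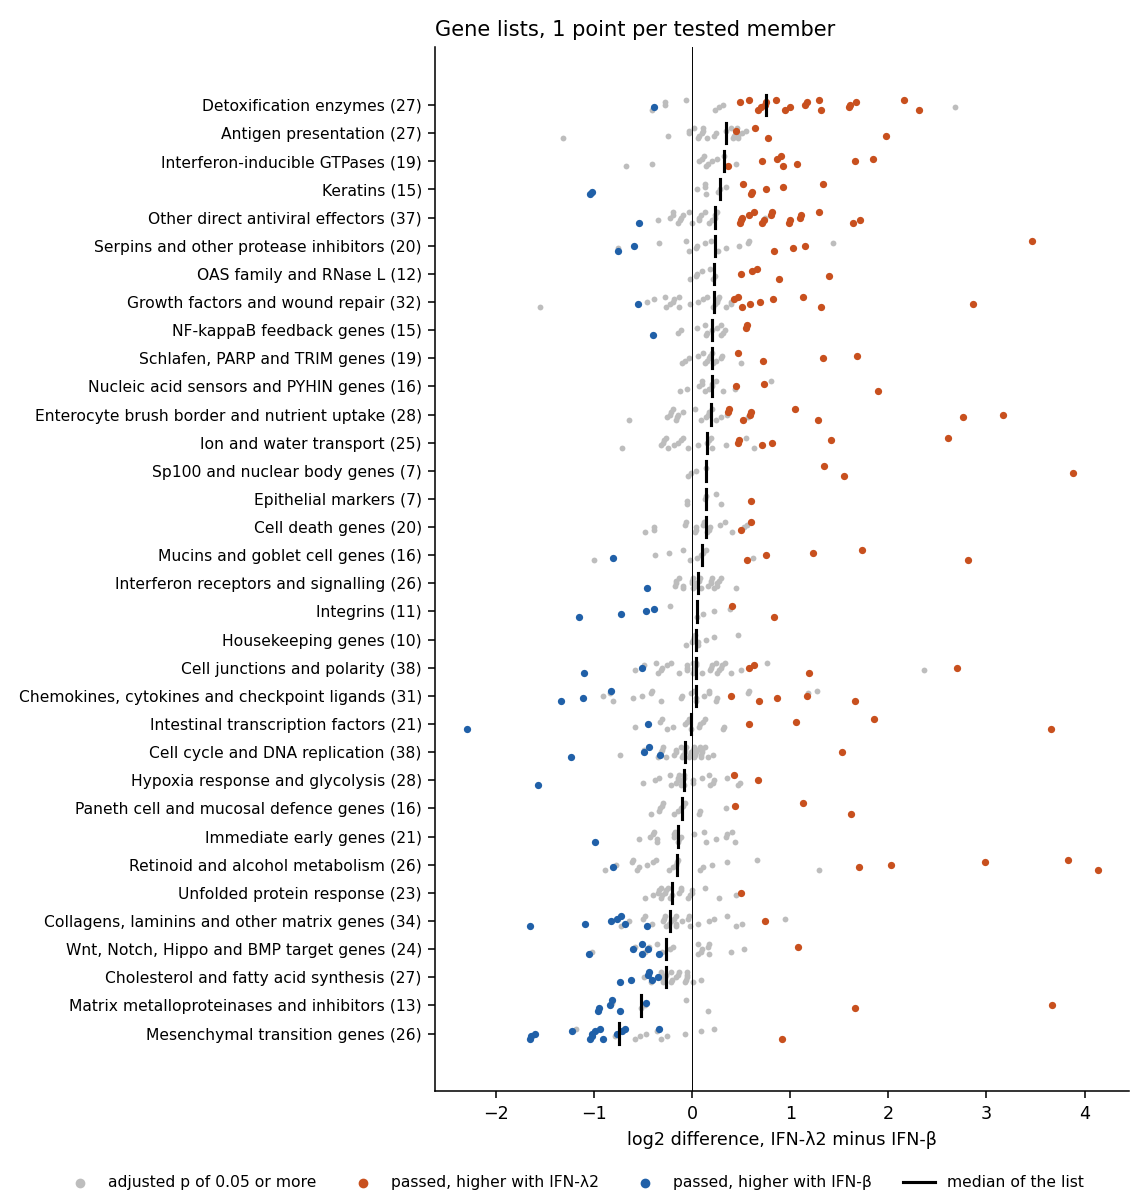
Difference of the IFN-λ2 from the IFN-β group (log2, horizontal axis) for every tested member of the gene lists with at least 7 tested genes, 1 point per gene, with the number tested in brackets and the median as a bar. Detoxification enzymes have the highest median at 0.75 and mesenchymal transition genes the lowest at -0.75, and housekeeping genes centre on 0.04.

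In the remaining lists the counts were small. Of 20 cell death genes, 2 passed towards IFN-λ2, among them Ripk3, a necroptosis kinase gene (1.52-fold, adjusted p = 0.0209), and 0 towards IFN-β in limma. Among 15 NF-κB feedback genes 2 passed towards IFN-λ2 and 1 towards IFN-β, while Rela and Nfkbia differed by 0.13 and 0.05 and did not pass. Of 21 immediate early genes 1 passed, towards IFN-β, and of 23 unfolded protein response genes 1 passed, towards IFN-λ2, both of which are near the share over all genes.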

How the data were processed

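Each of the 8 samples was measured on a 1-colour Agilent mouse array (Cy3) and read with Agilent Feature Extraction 10.7.3.1. The deposited table of the authors holds each probe's intensity on a linear scale, scaled per array towards a stated 75th percentile of 1500 units with values under 15 set to 15, so that differences of dim genes are compressed. Over the deposited probes the 75th percentile was 1363 to 1389.7 units per array, and its values were 0.909 to 0.926 of scanner intensities scaled here to that target. The log2 of these values was taken here, and probes above 15 units on at least 2 of 6 arrays were fitted with limma 3.58.1 (R 4.3.3) with the replicate number as a block. Tables, promoter searches and figures were made with Python 3.11.15, pandas 2.3.3 and matplotlib 3.10.9. The number of arrays limits the precision. Same-numbered arrays shared a slide and scan, and their deviations from the group means correlated at 0.197, 0.291 and 0.335 (-0.336 to 0.0524 for different numbers).

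A group well above background on no array gave only a bound, computed from the lowest signal well above background on each array. Probes were named through accession (26412), symbol (3854) or synonym (735) in a RefSeq table, and the array's own name was kept for 8428. On simulated data made from these arrays, recovery meant an adjusted p under 0.05 with the right sign, at any size of difference. It was 79.6% of 98 probes shifted by 1 and 90.8% of 98 shifted by 2 on the log2 scale. The 6 false calls among 25087 probes had also to be at least 2-fold. Recovery and false calls thus follow different rules.

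The compared arrays and the gene lists were chosen with earlier results of these data known. Named genes were, in each direction, the 12 called genes with the largest difference that were well above background on all 6 arrays, of 1 sign on all slides and had a gene symbol (clone, LOC, Rik and accession names were counted but not named), up to 6 with the largest bound, and per list up to 4 called and 2 other members; further genes were added after their values were seen. Alternatives covered the background correction, normalization, floor, filter, block, variance prior, the methods' t-test and left-out arrays.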

Additional observations from a re-analysis of the deposited data

How the results depend on the processing

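Main counts were 353 probes higher with IFN-λ2 and 182 higher with IFN-β. Without the replicate block they were 367 and 173, and 507 of the 535 called probes were shared. Of 169 named genes that passed, 7 did not pass without the block, namely Kif26b, Postn, Cdh11, Cxcl10, Sis, Derl3 and Cnga3. With normexp background correction on the scanner intensities, with an offset of 50, the counts were 227 and 35. Of the called probes 258 were shared, and the median over all probes was 0.08. A floor of 50 units gave 110 higher with IFN-β. The methods' t-test at their unadjusted threshold of 0.001 gave 205 and 77, and after Benjamini-Hochberg adjustment 115 higher with IFN-β. Leaving out 1 replicate pair left 1 residual degree of freedom and 0 to 0 calls in either direction in limma, while 381 to 452 and 211 to 475 probes were 2-fold with an unadjusted p under 0.05. Without replicate 2 these were 412 higher with IFN-λ2 and 475 higher with IFN-β, so that the order turned there too. Leaving out 1 array from the fit of all 8 arrays, added after seeing the data, gave 345 to 380 higher with IFN-λ2 and 138 to 415 higher with IFN-β, the 415, against 363 higher with IFN-λ2, without IFN-β replicate 2, so that the order of the counts turned. The cause was not tested. No probe called in both fits had the opposite sign.

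Of the 169 named genes that passed, 166 kept their sign under every alternative that tested them. Under each one other than left-out replicates, 102 passed. The floor of 50 units and the filter on probes well above background left some of the 169 genes untested. With normexp, Id4 (0.10), Gypc (0.0074) and Ccl8 (0.0084) reversed and 41 others did not pass. Signal over background limits the 6 genes higher with IFN-β that were named by a bound, none of which passed with normexp.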
